A study of Homo sapiens with 6 samples.

Results

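The glycolysis enzyme genes described here were HK2, GPI, PFKL, ALDOA, TPI1, GAPDH, PGK1, PGAM1, ENO1 and LDHA, taken by symbol in the order in which their enzymes act. They are 10 of the 23284 gene symbols in the FPKM tables, and all 10 were among the 11134 genes tested, those whose mean FPKM exceeded 1 in either group. FPKM scales sequenced fragments to the length of the transcript and to the number of mapped reads, so levels can be compared between genes of different length. The cells were GM12873, a B-lymphoblastoid line, that is, B lymphocytes of 1 donor made to grow in culture with Epstein-Barr virus. The 3 control samples were washed cells put directly into trizol, a reagent that lyses cells and keeps RNA from breaking down. The 3 lyophilized samples were cells freeze-dried in 0.1 M trehalose, a sugar that protects dried cells, kept dry at room temperature for 2 weeks and only then put into trizol. Freeze-drying, trehalose and storage therefore cannot be told apart. The labels pair control 1, 2 and 3 with lyophilized 1, 2 and 3, and they do not say whether the pairs came from separate cultures, so that p-values measure only the spread between these samples. The markers of B cells were present, with 8 of 8 above a mean FPKM of 1 and a summed FPKM of 2985 to 3966 in controls and 2713 to 3651 after lyophilization. None of the T cell, myeloid, erythroid and fibroblast markers reached a mean FPKM of 1, and of 4 epithelial markers KRT18 did, at 1.17.

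Glycolysis breaks glucose down to pyruvate in the cytosol and yields ATP and NADH along the way. Lactate dehydrogenase then turns pyruvate into lactate and returns the NAD+ that the pathway needs. B cells that grow and divide use much glucose in this way, and in lymphoblastoid lines viral proteins and MYC are known to drive the expression of glycolytic enzymes. Several of these mRNAs are also common reference transcripts in RT-qPCR, GAPDH above all.

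The genes lie on 9 chromosomes, and positions are given on GRCh37 as the loci of the tables. HK2 (chr2:75059782-75120481) encodes hexokinase 2, which phosphorylates glucose. GPI (chr19:34855645-34893318) encodes the isomerase that makes fructose 6-phosphate, and PFKL (chr21:45719925-45747261) the liver-type phosphofructokinase that commits the sugar to glycolysis. ALDOA (chr16:30064411-30081741) encodes the aldolase that splits the 6-carbon sugar, and TPI1 (chr12:6976584-6980110) the triosephosphate isomerase that interconverts its products. GAPDH (chr12:6643585-6647537) encodes glyceraldehyde 3-phosphate dehydrogenase, and PGK1 (chrX:77359666-77382324) the phosphoglycerate kinase that makes ATP. PGAM1 (chr10:99186027-99193198) encodes phosphoglycerate mutase, ENO1 (chr1:8921059-8939151) enolase, and LDHA (chr11:18415936-18429765) a subunit of lactate dehydrogenase.

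The transcripts differed widely in base composition, and the differences between the groups described below followed that composition across all genes. The GC content of the canonical transcript in GENCODE was 63.4% for PFKL, 60.5% for ALDOA, 42.8% for PGK1 and 41.8% for LDHA, against a median of 48.0% for the tested protein-coding genes. To show what this means in the coding sequence, the opening 20 codons of the longest coding exon are printed for PFKL, ALDOA and LDHA, from the coding strand on GRCh37. Capitals mark a G or C at the third position of a codon. They come from PFKL coding exon 4 (chr21:45731988-45732047, plus strand), ALDOA coding exon 3 (chr16:30078773-30078832, plus strand) and LDHA coding exon 3 (chr11:18422386-18422445, plus strand).
PFKL: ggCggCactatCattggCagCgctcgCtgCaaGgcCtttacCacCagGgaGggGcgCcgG
ALDOA: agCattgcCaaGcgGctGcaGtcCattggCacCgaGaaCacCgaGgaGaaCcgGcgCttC
LDHA: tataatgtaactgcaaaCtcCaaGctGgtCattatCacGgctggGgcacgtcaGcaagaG
A G or C stood at the third position in 16 of 20 codons for PFKL and 18 of 20 for ALDOA, against 10 of 20 for LDHA. Over the whole coding sequence the share of codons with G or C at the third position was 83.7% in PFKL, 72.7% in ALDOA, 55.9% in PGK1 and 46.7% in LDHA.

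Levels spanned more than 2 orders of magnitude along the pathway, and their order hardly differed between control and lyophilized samples. GAPDH was the highest, with FPKM values of 5845, 3743 and 4365 in controls 1 to 3 and, in the same order of pairs, 5852, 3914 and 4396 after lyophilization. It ranked 3 to 5 among all genes in every sample. Sample 1 of each group stood above the other samples, and the groups overlapped. ENO1 followed with 2065, 1706 and 1588 in controls 1 to 3 against 2076, 1722 and 1569 after lyophilization, and ALDOA with 1499, 1158 and 1244 against 1517, 1146 and 1175. In both genes the samples of pair 1 were again the highest, and the groups overlapped almost fully.

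LDHA, TPI1, PGK1 and PGAM1 had intermediate levels. LDHA had FPKM values of 804, 872 and 815 in controls 1 to 3 against 904, 939.7 and 932 after lyophilization. It was the only gene of the 10 whose lyophilized samples all lay above its controls, and the lyophilized samples did so for 9.66% of all tested genes. TPI1 had 786, 685 and 706 in controls 1 to 3 against 818, 757 and 711 after lyophilization. PGK1 had 545, 470.5 and 489 in controls 1 to 3 against 538, 522 and 493 after lyophilization. PGAM1 had 348, 324 and 327 in controls 1 to 3 against 348, 347 and 339 after lyophilization. For TPI1, PGK1 and PGAM1 the 2 groups overlapped.

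The genes of the opening steps were the lowest. GPI had FPKM values of 225, 189.7 and 205 in controls 1 to 3 against 213, 173 and 186 after lyophilization. PFKL had 121, 95.4 and 108 in controls 1 to 3 against 106, 87.4 and 93.7 after lyophilization, so that each lyophilized sample lay below its own control although the groups overlapped. HK2 was at 18.8, 21.4 and 21.8 in controls 1 to 3 against 19.9, 18.0 and 21.7 after lyophilization, with no common direction. By mean FPKM over the 6 samples the order was GAPDH, ENO1, ALDOA, LDHA, TPI1, PGK1, PGAM1, GPI, PFKL and HK2. Only LDHA and TPI1 had ranges that overlapped between neighbours, and LDHA was above TPI1 in 6 of 6 samples. GAPDH exceeded ENO1 2.62-fold and PFKL exceeded HK2 5.03-fold in mean FPKM.

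**Figure D1:**
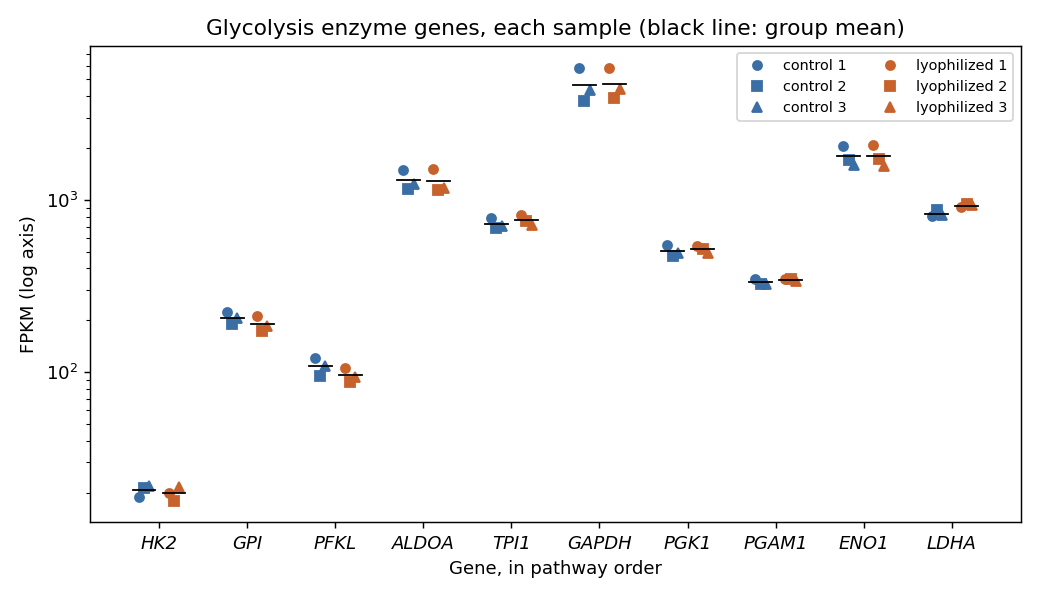
FPKM of each glycolysis enzyme gene in the 6 samples, on a log axis, with controls in blue, lyophilized samples in orange, the symbol giving the pair number and a black line for each group mean. The order of the genes is the same in both groups, from HK2 near 20.3 to GAPDH with a mean of 4686 over the 6 samples.

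Some of these levels are uncertain because the authors discarded reads with more than 1 hit in the genome, and because the library did not keep the strand. Of the stretches of 75 bases, the read length, in the PGAM1 transcript, 87.7% also occur elsewhere in the genome, in processed copies and in PGAM4. For TPI1 this share was 23.7%, for HK2 6.90% and for the other 7 genes between 0% and 4.75%. GAPDH shares 32.8% of its exonic bases with an antisense gene, and ALDOA 89.8% with a readthrough gene on its own strand, so that reads of these genes cannot be told apart. GPI shares 13.1% with another gene on its own strand. The sequences are the same in both groups, but how many reads the overlapping genes contributed in each group was not measured.

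The comparison of lyophilized with control samples asked whether glycolytic mRNAs kept their levels, relative to other mRNAs, through freeze-drying and storage. Without the pairing, 0 of the 10 genes passed an adjusted p of 0.05 in limma, and 0 had an unadjusted p under 0.05. In the same fit 64 of 11134 genes passed (0.575%), 62 of them lower and 2 higher in lyophilized samples, and 1573 had an unadjusted p under 0.05. The log2 fold changes of the 10 genes, on the log2(FPKM + 0.1) scale, ran from -0.17 for PFKL to 0.16 for LDHA, with a median of 0.01 against 0.04 for all tested genes. Standard errors in this fit were 0.11 to 0.23, so that modest differences were not detectable. GAPDH had the widest spread, with 4651 ± 1079.5 FPKM before and 4721 ± 1009 FPKM after lyophilization (SD, n = 3). Its log2 fold change was 0.03 ± 0.23 (SE). Because FPKM is scaled to the mapped reads of each sample, a loss of all mRNAs alike would not show in these values. Neither the number of cells nor the RNA per cell can be read from them.

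Samples of 1 pair resembled each other, so keeping the pair in the fit narrowed the errors for most of the genes. With the pair as a block, 2 of the 10 genes passed, and both differences were close to 11.4% of the control mean. LDHA rose from 830.4 ± 36.5 to 925 ± 18.8 FPKM (SD, n = 3), with log2 differences of 0.17, 0.11 and 0.19 in pairs 1 to 3. Its log2 fold change was 0.16 (95% interval 0.07 to 0.24, limma adjusted p = 0.0157 with the block and 0.551 without). PFKL was lower, at 95.8 ± 9.59 after lyophilization against 108 ± 12.6 in controls, with log2 differences of -0.18, -0.13 and -0.21. Its log2 fold change was -0.17 (95% interval -0.28 to -0.07, limma adjusted p = 0.0236 with the block and 0.565 without). The signs of both genes turned in the fits with GC correction described below. Across all tested genes 15.9% passed as higher and 14.9% as lower with the block, so that 1 of 10 in each direction was near the background.

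The other 8 genes did not pass with the block. GPI came closest, with a lower level in all 3 pairs, a log2 fold change of -0.12 (95% interval -0.21 to -0.02) and a limma adjusted p of 0.0637. For GAPDH the interval was -0.05 to 0.10, for ENO1 -0.08 to 0.08 and for ALDOA -0.11 to 0.06. For TPI1 it was -0.02 to 0.16, for PGK1 -0.05 to 0.15 and for PGAM1 -0.04 to 0.14. HK2, the gene with the lowest level, had the widest interval, -0.23 to 0.11, and its pair 2 fell by 0.25 on the log2 scale while pair 1 was 0.08 higher. Within every pair TPI1, GAPDH and LDHA were higher after lyophilization and GPI and PFKL lower, 3 and 2 of 10 genes, against 33.4% and 28.8% of all tested genes. With quantile normalization the fold changes of TPI1, GAPDH, PGK1, PGAM1 and ENO1 became negative. With quantile normalization and the block, GPI, PFKL, ALDOA and ENO1 passed as lower (4 of 10, against 15.9% of all genes). The calls of LDHA and PFKL both ended when the mean-variance trend was left out of the blocked fit, and when pair 3 was left out. With the block and quantile normalization the call of LDHA ended as well, at a log2 fold change of 0.03 (limma adjusted p = 0.576). Without pair 1 the count was 1, LDHA, and without pair 2 it was 3, with GPI added.

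**Figure D2:**
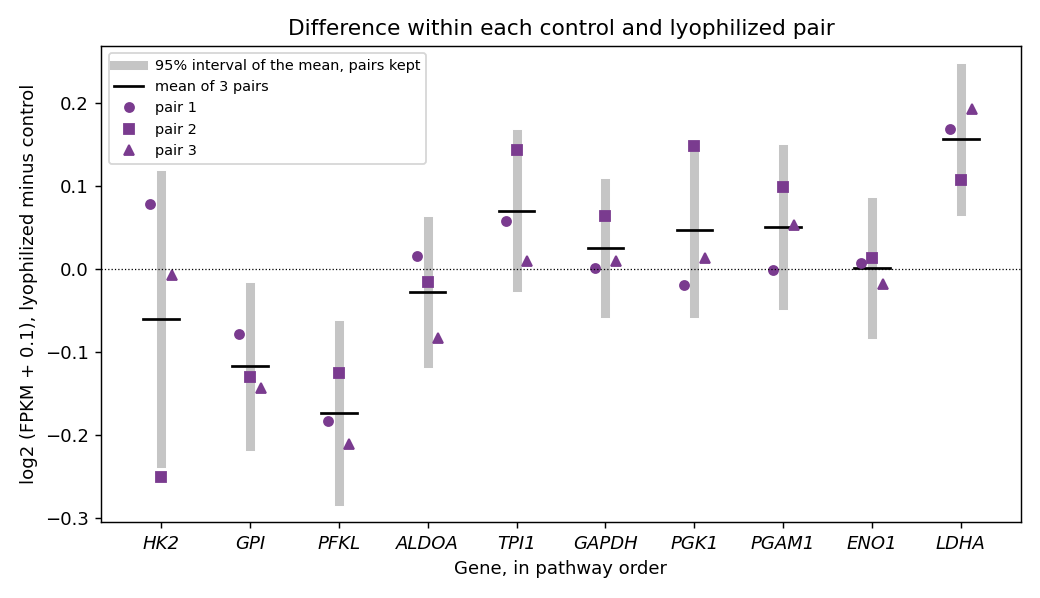
Difference between the lyophilized and the control sample of each pair on the log2(FPKM + 0.1) scale, by gene in pathway order, with points for pairs 1 to 3, a black line for their mean and a grey bar for the 95% interval of the blocked fit. The bars of LDHA, GPI and PFKL lie off 0, and those of the other 7 genes include it.

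The summed FPKM of the 10 genes was 12257, 9265 and 9868 in controls 1 to 3 against 12393, 9626 and 9917 after lyophilization. The lyophilized sum was higher in 3 of 3 pairs, with a mean difference of 182 (two-sided exact permutation test of 3 against 3, p = 0.7, exact sign-flip test on the pairs, p = 0.25, where the smallest possible values are 0.1 and 0.25). GAPDH makes up much of this sum. As a share of all FPKM with small RNAs left out, the 10 genes held 2.53%, 2.10% and 2.25% in controls 1 to 3 against 2.48%, 2.05% and 2.16% after lyophilization. Within each pair this share fell after lyophilization (exact permutation p = 0.7), the opposite direction to the sum.

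Fold changes of the 10 genes ran with the GC content of their transcripts, as they did across all genes. LDHA and PGK1, the most GC-poor of the 10 transcripts, had log2 fold changes of 0.16 and 0.05, and the GC-rich ALDOA and PFKL -0.03 and -0.17. Across the 10 genes Spearman's rho was -0.54 and Pearson's r -0.68. Over 10396 protein-coding genes rho was -0.78. These are descriptions across genes, which share the same 6 libraries and are not independent replicates. Set against genes within 1 percentage point of the same GC content, 6 of the 10 lay above the median of those genes. ALDOA was 0.17 above it, TPI1 0.16, GAPDH 0.15, PGAM1 0.12, ENO1 0.09 and PFKL 0.08 on the log2 scale. PGK1 was lower than its GC neighbours, with a fold change of 0.05 where their median was 0.17, and LDHA was 0.04 below theirs. Of the 4812 bases of the canonical PGK1 transcript, only 2344 lie within the locus given above, where the GC content is 44.6%. The neighbours of PGK1 and its values corrected for GC content and length are therefore uncertain.

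**Figure D3:**
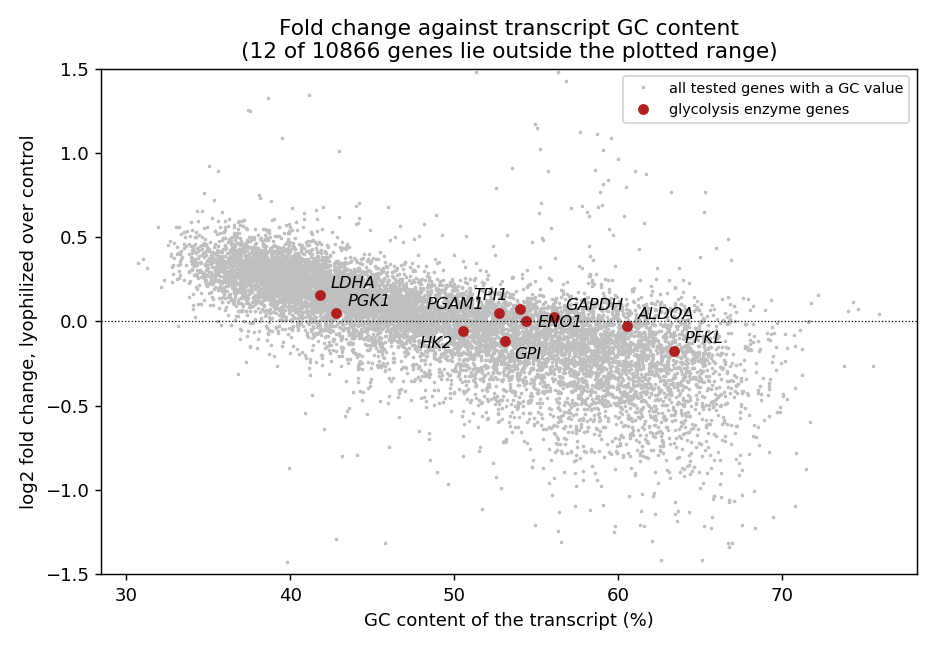
Log2 fold change of lyophilized over control samples against the GC content of the canonical transcript in percent, with a grey point for each tested gene and red points for the glycolysis enzyme genes. The red points follow the downward slope of the grey ones from LDHA at 41.8% to PFKL at 63.4%.

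When a loess curve over GC content was subtracted in each sample and the block was kept, 4 of the 10 genes passed as higher, against 9.46% of all genes. They were ALDOA with a corrected log2 fold change of 0.21, TPI1 with 0.19, GAPDH with 0.18 and PGAM1 with 0.16 (limma adjusted p = 0.0157, 0.0121, 0.0222 and 0.0210). LDHA fell back to -0.03 and PFKL turned to 0.12, and neither passed (limma adjusted p = 0.721 and 0.0640). When transcript length was corrected together with GC content, PFKL alone passed, as higher with 0.19 (limma adjusted p = 0.0338), against 2.71% of all genes. The direction and the call of these genes thus depended on the correction. Fold changes also differed by level, with a median over all genes of 0.09 at a mean FPKM of 100 or more, where 9 of the 10 genes lie, and 0.03 between 1 and 10. The part of GC content, length and level in the differences was not tested.

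For GAPDH, ENO1 and ALDOA the 3 pairs lay further apart than the control and lyophilized means, while LDHA showed the reverse. In a test of the pair number with the condition in the model, 6 of the 10 genes passed, against 45.2% of all tested genes. These were GAPDH (F = 106, limma adjusted p = 3.82e-05), ENO1 (F = 42.5, limma adjusted p = 0.000308), ALDOA, PFKL, GPI and TPI1. All 6 were highest in pair 1, and 4 of them were lowest in pair 2. GAPDH averaged 5848 FPKM in pair 1, 3829 in pair 2 and 4381 in pair 3, a 1.53-fold range. ENO1 and ALDOA each had a 1.31-fold range, and PFKL, GPI and TPI1 ranges of 1.24-fold, 1.21-fold and 1.13-fold. Counting all 10 genes, 8 were highest in pair 1 in the controls and again in the lyophilized samples, as were 21.5% of all tested genes. LDHA and HK2 were the exceptions, with LDHA highest in pair 2. The median range between pairs was 1.17-fold for the 10 genes and 1.26-fold for all tested genes. Without pair 1 only GAPDH passed, and without the variance trend GAPDH, ENO1 and ALDOA did. With quantile normalization 5 of the 10 passed, and 4583 of all 11134 tested genes. ALDOA and TPI1 then did not pass (limma adjusted p = 0.177 and 0.857), whereas LDHA did (limma adjusted p = 0.00148). Which of the 10 genes differed between pairs thus depended on the scaling. Read counts are not in the tables.

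**Figure D4:**
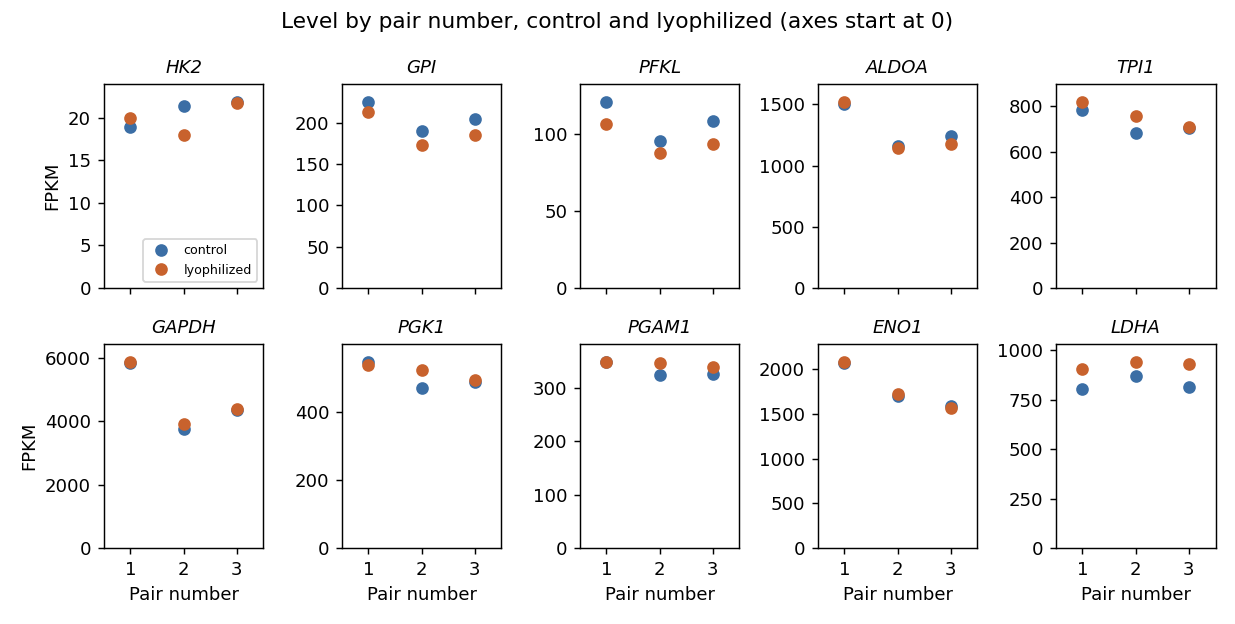
FPKM of each gene by pair number, 1 panel per gene with its axis starting at 0, controls in blue and lyophilized samples in orange. In GAPDH, ENO1 and ALDOA the samples of a pair nearly coincide while pair 1 stands above pairs 2 and 3, and in LDHA the orange points lie above the blue ones at every pair number.

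The 3 genes outside the pathway with the profile most like the mean of the 10 genes over the 6 samples were HLA-C, an antigen-presenting molecule (r = 0.9998), the kinase NEK6 (r = 0.997) and the adhesion molecule ICAM3 (r = 0.996). HLA-C had FPKM values of 926, 641 and 708 in controls 1 to 3 against 933, 642 and 683 after lyophilization. Within the pathway ALDOA (r = 0.995) and GAPDH (r = 0.989) lay nearest to the mean profile, of which they are part, while HK2 (r = -0.30) and LDHA (r = -0.38) ran against it. With 6 samples in 3 pairs these values describe mainly the difference of pair 1 from the others.

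Because many of these genes varied together between pairs, the 250 bases before their RefSeq starts were searched on GRCh38.p14 for ACGTG and GCGTG, the core letters read by hypoxia-inducible factors, and for CACGTG, the E-box that MYC reads. Both strands were searched, and each CACGTG also holds ACGTG once on either strand. A core was present in at least 1 window of 9 of the 10 genes, PGAM1 being the exception, and in 47.4% of all 27305 symbols. An E-box was present for 4 of the 10 genes, HK2, ALDOA, GAPDH and LDHA, and in 7.73% of all symbols. The 10 genes had 15 windows, of 53.2% to 78.0% GC, and all symbols had 35116. All symbols were counted whether or not they were expressed, and neither GC content nor the number of windows was matched. These shares therefore do not show that the motifs are more frequent in the 10 genes than in like promoters. For 7 of the 10 genes a window lay at the start of the canonical transcript, and 6 of those 7 windows held a core and 1, that of LDHA, an E-box. The E-boxes of HK2, ALDOA and GAPDH lay in other windows. The windows of ENO1, which differed most between pairs among these 7, and of LDHA, which differed least, are printed in the direction of transcription with the cores in capitals. They lie at chr1:8878687-8878936 on the minus strand and chr11:18394313-18394562 on the plus strand.
ENO1: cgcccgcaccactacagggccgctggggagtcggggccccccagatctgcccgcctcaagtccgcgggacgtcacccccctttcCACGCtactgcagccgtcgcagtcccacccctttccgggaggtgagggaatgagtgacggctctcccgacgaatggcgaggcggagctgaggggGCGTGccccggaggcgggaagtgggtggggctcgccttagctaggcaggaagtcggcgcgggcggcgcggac
LDHA: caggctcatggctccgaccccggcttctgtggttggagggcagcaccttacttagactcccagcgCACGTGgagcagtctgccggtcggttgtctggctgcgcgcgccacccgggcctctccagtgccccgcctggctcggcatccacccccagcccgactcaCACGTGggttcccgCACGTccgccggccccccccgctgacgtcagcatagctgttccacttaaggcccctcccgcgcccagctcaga
ENO1 held 2 cores and no E-box, and LDHA held 5 overlapping core matches in 2 E-boxes and 1 further core. These are matches of letters and were not tested for binding.

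Other isozymes of the same steps were compared from a list of 17 symbols, of which 12 genes were tested. With the block LDHB was higher and ENO2, ENO3 and GAPDHS were lower, 1 and 3 of 12 against 15.9% and 14.9% of all tested genes, and the median log2 fold change of the 12 was -0.10. With GC correction 3 of these 4 passed the same way, and ENO3 did not (limma adjusted p = 0.0664). LDHB, the other main subunit of lactate dehydrogenase, had FPKM values of 686, 842 and 701 in controls 1 to 3 against 862, 974 and 879.8 after lyophilization. Its log2 fold change was 0.29 (limma adjusted p = 0.00174 with the block). LDHB rose more than LDHA in each pair, so that the ratio of LDHA to LDHB went from 1.12 ± 0.0759 to 1.02 ± 0.0521 (SD, n = 3, lower in 3 of 3 pairs, two-sided exact permutation test, p = 0.3, adjusted p = 0.6 over 8 ratios). LDHA and LDHB transcripts have GC contents of 41.8% and 43.7%, and LDHB shares 76.5% of its exonic bases with an overlapping gene.

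ENO2, the enolase of neurons, had 113, 79.2 and 79.2 FPKM in controls 1 to 3 against 88.6, 68.6 and 61.9 after lyophilization. The ratio of ENO1 to ENO2 was 18.2, 21.5 and 20.05 in controls 1 to 3 against 23.4, 25.1 and 25.4 after lyophilization. These ratios did not overlap (exact permutation p = 0.1, the smallest that the design allows, adjusted p = 0.6). ENO3, the muscle enolase, went from 11.98 ± 0.880 to 9.35 ± 0.901 FPKM, and GAPDHS, the sperm form of GAPDH, from 1.62 ± 0.403 to 0.703 ± 0.243 FPKM. GAPDHS shares 64.02% of its exonic bases with an antisense gene.

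The phosphofructokinase step was shared between isozymes of like level, while a single isozyme held most of the hexokinase, enolase and aldolase FPKM. PFKL held 45.4%, 39.2% and 43.0% of the summed FPKM of PFKL, PFKM and PFKP in controls 1 to 3 against 43.4%, 38.9% and 40.9% after lyophilization, and PFKP held 38.7% to 42.3% over the 6 samples. HK1 and not HK2 was the main hexokinase transcript, with HK2 at 24.6% to 28.8% of hexokinase FPKM. ENO1 held 94.2% to 95.7% of enolase FPKM and ALDOA 80.9% to 87.9% of that of ALDOA and ALDOC. The ratios of HK2 to HK1, PFKL to PFKM, PFKL to PFKP and ALDOA to ALDOC had exact permutation p-values of 0.3 to 0.9. The isozymes that did not pass with the block had mean FPKM values, before and after lyophilization, of 56.2 and 52.1 for HK1, 1.02 and 0.900 for HK3, 42.9 and 40.2 for PFKM, and 103 and 97.1 for PFKP. The same means were 257 and 241 for ALDOC, 1.13 and 0.653 for PGAM2, 72.6 and 75.8 for PGAM4, which shares sequence with PGAM1, and 7.37 and 8.72 for BPGM. PKM, listed in the tables as PKM2 and encoding the pyruvate kinase that links ENO1 to LDHA, had 1079, 1095 and 1098 FPKM in controls 1 to 3 against 1048, 1037 and 1031 after lyophilization. It was lower in all 3 pairs, with a log2 fold change of -0.07 (limma adjusted p = 0.167 with the block), and showed no difference between pairs (limma adjusted p = 0.997).

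Among 17 tested genes of transport and regulation, 2 were higher and 5 lower with the block, against 15.9% and 14.9% of all tested genes. The glucose transporters SLC2A1 and SLC2A6 were lower, with log2 fold changes of -0.29 and -0.36, as was PDK2, a kinase that inhibits pyruvate dehydrogenase, with -0.39. The lactate transporter SLC16A1 was higher with 0.28 (limma adjusted p with the block 0.00898, 0.0116, 0.0325 and 0.0209). The more abundant lactate transporter SLC16A3 was lower, at 138, 109 and 126 FPKM in controls 1 to 3 against 119.5, 98.3 and 105 after lyophilization, with -0.21 (limma adjusted p = 0.0120 with the block). With GC correction 2 of these 7 calls held, SLC2A1 and MYC, and SLC16A3 turned to 0.11 (limma adjusted p = 0.0810). MYC, a transcription factor whose targets include many glycolytic genes, had 124, 98.3 and 106 FPKM in controls 1 to 3 against 113, 80.9 and 91.6 after lyophilization (limma adjusted p = 0.0151 with the block). HIF1A, which encodes a hypoxia-inducible factor, was the other gene called higher, with 0.27 (limma adjusted p = 0.0391 with the block). With GC correction it had 0.02 (limma adjusted p = 0.794). In the pentose phosphate pathway, which branches off glucose 6-phosphate, 1 of 8 tested genes passed, H6PD, lower with -0.56 (limma adjusted p = 0.00394 with the block). With GC correction H6PD passed again as lower, and 3 of the 8 genes passed as higher, against 9.46% of all genes. Over the isozymes and the other pathway lists together, 0 of 61 tested genes passed without the block in limma and 6 had an unadjusted p under 0.05, against 0.575% and 1573 of 11134 among all tested genes.

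Genes of pyruvate entry and the citric acid cycle, which take up pyruvate in mitochondria, were mostly highest in pair 2 where they differed between pairs. Of 23 tested genes 7 were higher and 1 lower with the block, against 15.9% and 14.9% of all tested genes, with a median log2 fold change of 0.09. SUCLA2, a succinyl-CoA ligase subunit, had 0.42, DLD, the shared dehydrogenase subunit of several complexes, 0.33, PDHX 0.30 and IDH3A 0.21. With GC correction none of these 4 passed, and 1 of the 8 calls held, that of CS, citrate synthase, which was lower. Of the 14 that differed between pairs, out of 23 and against 45.2% of all tested genes, 11 were highest in pair 2 and 13 lowest in pair 1, where the 6 glycolysis enzyme genes that differed were highest. The shares of all tested genes highest in pair 2 or lowest in pair 1 are not given here, so these counts have no background. The difference between the 2 lists was not tested. In all these lists the genes named as higher had transcripts of 37.9% to 43.7% GC. Those named as lower had 53.3% to 64.7%, except MYC with 48.8% and CS with 48.4%. Most were named for the size of their change, so this describes the named genes only and was not tested.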

How the data were processed

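RNA of 3 control and 3 lyophilized samples was sequenced as poly(A)-selected, unstranded libraries with single-end reads of 75 bases. The authors mapped reads to hg19 (GRCh37) with TopHat2 2.0.7, keeping reads with 1 hit, and deposited FPKM values from Cufflinks for 24934 records per sample, unfiltered. Neither its version nor the annotation used with it is given in the sources used here. The tables hold no counts per gene, and the read numbers that the study lists per sample were not used in the fits, so no counting interval was computed.

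Each symbol kept its record with the highest mean FPKM, small RNAs were removed, and genes whose mean FPKM exceeded 1 in either group were fitted on log2(FPKM + 0.1) with limma 3.58.1 in R 4.3.3, using a trended variance, Benjamini-Hochberg adjustment over 11134 genes and a threshold of 0.05. Such fold changes understate those of low genes. The main fit had no block, as the study's own test. A second had the pair as a block, since the labels pair the samples (deviations of paired samples correlated at r = 0.716, 0.603 and 0.476), and others a loess correction for GC content (span 0.3, degree 2), which covers 10866 genes with a transcript. Single values were compared with exact permutation tests. Transcripts are Ensembl canonical ones in GENCODE, promoter windows are from RefSeq on GRCh38.p14, and 75-base stretches were looked up across the whole genome in either orientation. The scripts were tested on simulated data. Alternatives covered the pseudocount, filters, scaling, variance trend, block, GC correction, records and left-out samples. A further 6 kinds of fit with the block were chosen after the data were seen. The genes and lists were chosen with earlier results of these data known. The genes named are the 10 enzymes, PKM, their isozymes, up to 4 genes per list with the largest change among those passing with or without the block, and the 3 most alike in profile. MYC, HIF1A, SLC16A3 and CS were named after their values were seen. Other computations used scipy 1.17.1, pandas 2.3.3 and numpy 2.4.6 in Python 3.11.15, with plots from matplotlib 3.10.9. A further coding stretch is not reported here.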

Additional observations from a re-analysis of the deposited data

How the results depend on the processing

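Without the pairing, 0 of the 10 genes passed under every pseudocount, filter, scaling and left-out sample or pair tried. With the replicate block 2 passed, and so did 2 with the block and upper-quartile scaling and 2 with the block and pseudocount 1. The block with GC correction gave 4, with GC and length correction 1, with quantile normalization 4, and with no variance trend 0. Over all left-out samples and pairs, with or without the block, the count was 0 to 3. Among all genes 64 passed as reported and 0 without a filter on low values. The block gave 3423 genes, with GC correction 1847, with GC and length correction 633, with upper-quartile scaling 3540, with quantile normalization 3510, with pseudocount 1 3436 and with no variance trend 1649, and leaving out samples or pairs gave 0 to 5355. Without pair 1 it was 131 genes, or 2205 with the block, and without pair 3 1257 with the block. The 61 tested pathway companions went from 0 to 20, 13, 7, 21, 22, 21 and 6 in the same order of settings, and to 0 to 32 on leaving out samples or pairs, with 11 under the block without pair 1. The genes that differed between pairs numbered 6, 3 with no variance trend, 5 with quantile normalization and 1 to 8 with samples or pairs left out. They numbered 7 with upper-quartile scaling, 7 with GC correction and 8 with GC and length correction.

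The median log2 fold change of the 10 genes was 0.013, -0.080 with quantile normalization, 0.12 with the block and GC correction, 0.071 with GC and length correction, and -0.087 to 0.10 on leaving out samples or pairs. The difference in summed FPKM turned to -632 with quantile normalization and ran from -692 to 1079 with samples or pairs left out, since unequal pairs then remain in the groups. Quantile normalization turned the fold changes of TPI1 to -0.023, GAPDH to -0.075, PGK1 to -0.086, PGAM1 to -0.016 and ENO1 to -0.16, and upper-quartile scaling turned ENO1 to -0.0098. The block with GC correction turned PFKL to 0.12, ALDOA to 0.21, PGK1 to -0.10 and LDHA to -0.028. With GC and length correction HK2 turned to 0.063, GPI to 0.048, PFKL to 0.19, ALDOA to 0.12, PGK1 to -0.093 and LDHA to -0.028. Leaving out samples or pairs gave ranges of -0.16 to 0.080 for ALDOA, -0.11 to 0.11 for ENO1, -0.14 to 0.20 for GAPDH, -0.13 to 0.036 for HK2 and -0.00264 to 0.110 for PGK1. Without a change of sign they ran from -0.26 to -0.091 for PFKL, lowest without control 2 and highest without control 1, from -0.20 to -0.051 for GPI, without lyophilized 1 and lyophilized 2, from 0.018 to 0.13 for TPI1, without lyophilized 1 and control 1, and from 0.026 to 0.084 for PGAM1, without pair 2 and control 1. Those of LDHA stayed within 0.13 to 0.19. The cause of these changes was not tested.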

Other observations

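GAPDH is often read against other reference transcripts, and the calls of both depended on the fit. Of 11 other common reference genes that were tested, 0 passed without the block in limma (1 at an unadjusted p under 0.05), and with the block 3 were higher and 1 lower, against 15.9% and 14.9% of all tested genes. ACTB, the cytoskeletal actin, had FPKM means of 5325 ± 252 after lyophilization against 6312 ± 359.8 in controls (SD, n = 3), a log2 fold change of -0.24 (limma adjusted p = 0.00153 with the block, lower in 3 of 3 pairs). B2M, the light chain of HLA class I, had 0.19, HPRT1, a purine salvage enzyme, 0.23, and TFRC, the transferrin receptor, 0.32 (limma adjusted p = 0.00548, 0.0106 and 0.0119 with the block, each higher in 3 of 3 pairs). The median log2 fold change of the 11 was 0.11. The transcript of ACTB has a GC content of 55.2%, and those of B2M, HPRT1 and TFRC 39.1%, 40.4% and 40.9%. With GC correction and the block none of these 4 calls held, ACTB having a log2 fold change of -0.10 (limma adjusted p = 0.162), while GAPDH passed as higher with 0.18 (limma adjusted p = 0.0222).

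The ratio of GAPDH to ACTB was 0.987, 0.586 and 0.659 in controls 1 to 3 against 1.16, 0.731 and 0.791 after lyophilization. It was higher in the lyophilized sample of each pair, and the groups overlapped (two-sided exact permutation test, p = 0.5, adjusted p = 0.8 over 8 ratios). The ratio of LDHA to PFKL, the pair of genes with the most unlike fold changes and chosen for that, was 6.66, 9.14 and 7.52 in controls 1 to 3 against 8.51, 10.7 and 9.94 after lyophilization, higher in 3 of 3 pairs.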
